A study of Homo sapiens with 12 samples.

Results

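Oxidative phosphorylation is carried out by 5 protein complexes of the inner mitochondrial membrane, and their genes were followed here while H9, an established line of human embryonic stem cells, was differentiated towards γδ T cells. A member was any row of the deposited count table whose protein-coding symbol began with MT- or was that of a named subunit of complexes I to V (NDUFA, NDUFB, NDUFC, NDUFS or NDUFV with a number, SDHA to SDHD, UQCR, COX4 to COX8 and ATP5), with assembly factors left out. This rule found 100 members among 36601 rows, 13 encoded by the mitochondrial genome and 87 by the nuclear genome. Complex I had 7 mitochondrial and 36 nuclear members, complex II had 4 nuclear members, complex III 1 and 9, complex IV 3 and 19, and complex V 2 and 19. NDUFA4 and NDUFA4L2 were placed with complex IV, where the NDUFA4 protein is found. CYC1 and NDUFAB1, which also encode subunits, have symbols outside the rule and are given with the related pathways.

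All libraries came from wild-type H9 cells of 1 labelled batch, which had been kept on mouse feeder cells before they were differentiated with cytokines. There were 3 libraries at day 10, labelled haematopoietic progenitors, 3 at day 15 and 3 at day 20, both labelled T progenitors, and 3 at day 25, labelled mature γδ T cells. Up to day 10 the cells had been kept in APEL2 medium with a series of factors that ended with VEGF, bFGF, Flt3L, IL-7, SCF and SB431542. From day 10 on the medium was MEM-α with serum, DLL4 (a ligand of Notch), Flt3L, IL-7 and SCF, so the first comparison also spans a change of medium. Nothing in the labels tells if the 3 libraries of a day came from separate cultures, so each p-value measures only how these libraries scatter, and that scatter may be technical.

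Complex I oxidises NADH and complex II oxidises succinate, and both pass electrons to ubiquinone. Complex III hands them on to cytochrome c, and complex IV gives them to oxygen. Complexes I, III and IV pump protons, and complex V, the ATP synthase, uses the proton gradient to make ATP. Complexes I, III, IV and V are built from subunits of both genomes, while all subunits of complex II are nuclear encoded. The mitochondrial genes are transcribed inside the organelle as long transcripts that are cut at the tRNAs between the genes, so their RNA levels depend on cutting and decay as well as on transcription.

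Libraries held between 27026196 and 39811230 counts. Markers of the labelled cells were checked. CD3E and CD3G had 0 counts in all libraries of days 10 and 15, and CD3D and CD3G had 0 in all those of day 25. The summed level of 10 T-cell markers ran from 2.86 to 3.58 CPM (counts scaled to a common library size with edgeR's TMM factors) at day 10, from 27.9 to 30.3 at day 15, from 38.7 to 43.4 at day 20 and from 14.4 to 16.7 at day 25. For 7 haematopoietic progenitor markers the sums ran from 650 to 679 CPM at day 10 and from 548 to 572 at day 15. They ran from 488 to 496 at day 20 and from 567 to 583 at day 25. Sums of 8 megakaryocyte markers ran from 4594 to 4921 CPM at day 10, from 24526 to 25462 at day 15, from 404 to 409 at day 20 and from 100 to 105 at day 25. Sums of 8 myeloid markers ran from 456 to 474, from 5354 to 5585, from 18786 to 19113 and from 11736 to 11996 CPM on these days. Sums of 10 proliferation markers ran from 3362 to 3486 CPM at day 10, from 650 to 673 at day 15, from 1149 to 1172 at day 20 and from 693 to 704 at day 25. The cell types present thus differed between days, the part of this in each result below was not tested, and in such bulk RNA fewer cells of a type and less RNA per cell cannot be told apart.

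The mitochondrially encoded members took 5.15%, 5.55% and 5.65% of all counts in the 3 libraries of day 10, and 3.46%, 3.61% and 3.56% at day 15. They took 5.80%, 5.29% and 5.30% at day 20 and 5.26%, 5.26% and 5.68% at day 25. Day 15 was thus the low day, and the other 3 days overlapped. The nuclear members together took 0.783%, 0.763% and 0.762% of counts at day 10, and 0.349%, 0.352% and 0.358% at day 15. Their share came to 0.605%, 0.584% and 0.581% at day 20 and to 0.545%, 0.537% and 0.549% at day 25. For the nuclear members the 4 days did not overlap, and day 10 stood highest.

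The ratio of mitochondrial to nuclear subunit counts needs no scaling between libraries. It was 6.58, 7.26 and 7.42 at day 10 and 9.89, 10.2 and 9.94 at day 15. At day 20 it was 9.59, 9.05 and 9.13, and at day 25 it was 9.66, 9.79 and 10.3. Each library of the 3 later days stood above each library of day 10. Within complexes the same order held for complex I (mean ratio 9.09 ± 0.705 at day 10 and 12.0 ± 0.648 at day 25, SD, n = 3), complex III (4.55 ± 0.428 and 5.68 ± 0.28), complex IV (22.2 ± 1.12 and 30.5 ± 0.467) and complex V (1.31 ± 0.0659 and 1.79 ± 0.129). Proliferation markers were highest on day 10, the day with the lowest ratio, and their part in it was not tested. After TMM scaling, the summed mitochondrial members stood at 49826 ± 2510 CPM at day 10, 46844 ± 1110 at day 15, 47018 ± 2900 at day 20 and 52036 ± 2610 at day 25. The libraries of days 10, 15 and 20 overlapped, and the lowest of day 25 (50449) lay just above the highest of day 20 (50363). The summed nuclear members stood at 7034 ± 93.7, 4675 ± 74.1, 5075 ± 154 and 5236 ± 84.4 CPM. Day 10 was the highest day for the nuclear sum and day 15 the lowest, with no overlap between either and another day.

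**Figure D1:**
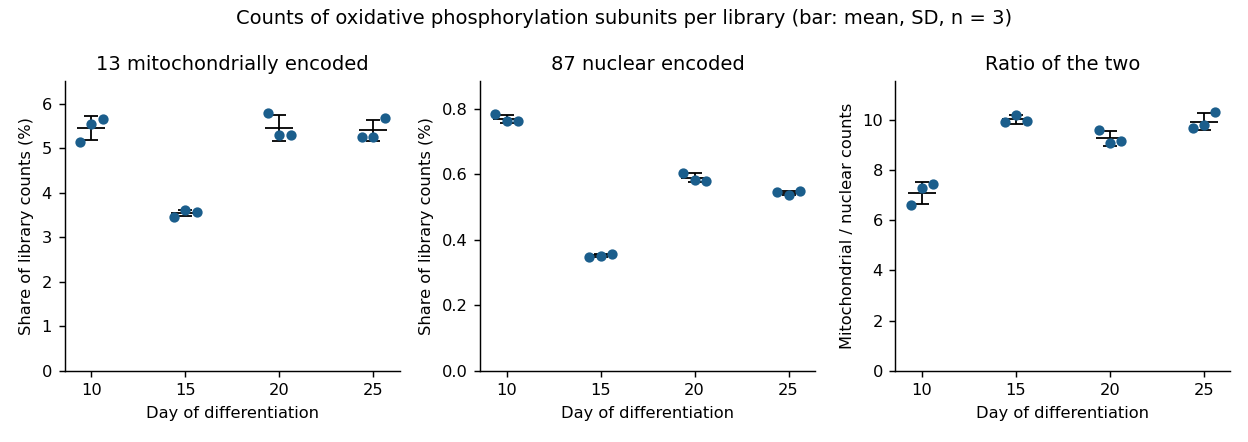
Share of all counts in a library taken by the 13 mitochondrially encoded members (left) and the 87 nuclear encoded members (middle), in percent, and the ratio of the 2 sums (right), by day, with 1 point per library and a bar for the mean and SD of 3 libraries. The ratio lies between 6.58 and 7.42 at day 10 and between 9.05 and 10.3 in all later libraries.

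Levels were also taken per kilobase of 1 chosen transcript per gene, the longest of those that the annotation ranks first. A long choice, such as 13566 bases for SDHC, lowers the level per kilobase. The median mitochondrial member stood at 3130 CPM per kb at day 10 and 2980 at day 25. The median nuclear member stood at 42.6 and 33.6 CPM per kb on the same days. The highest mitochondrial level was that of MT-CO1, with 9290 CPM per kb at day 10 and 11800 at day 25. Among nuclear members the ATP synthase β subunit gene ATP5F1B led, with 510 and 308 CPM per kb.

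Of the 100 members, 95 had enough counts to be tested, all 13 mitochondrial ones among them. The 5 not tested were COX4I2, COX6A2, COX7B2, COX8C and ATP5MGL, which are isoforms or copies known from other tissues. Over the 4 days 88 members differed at an adjusted p under 0.05 (edgeR joint F test), against 90.5% of the 20183 genes tested.

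From day 10 to day 15, 61 of 82 tested nuclear members fell and 8 rose, with a median log2 fold change of -0.52. Of all genes tested 73.2% were called, 30.8% as lower and 42.4% as higher, and their median was 0.20. Of the mitochondrial members 7 fell and 2 rose (median -0.24). From day 15 to day 20, 41 nuclear members rose and 20 fell (median 0.13, all genes 0.10), while 76.6% of all genes were called, 40.6% as higher and 36.0% as lower. Of the mitochondrial members 3 rose and 3 fell (median -0.00). The count of mitochondrial rises was 1 without day 20 replicate 1 and 5 without day 25 replicate 3, and that of falls was 1 without day 20 replicate 2 or 3.

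From day 20 to day 25, 16 nuclear members rose and 23 fell (median -0.03), with 49.7% of all genes called, 24.5% as higher and 25.1% as lower. Of the mitochondrial members 4 rose and 1 fell (median 0.07). Over the whole course, day 25 against day 10, 66 nuclear members were lower and 8 higher (median -0.36, all genes 0.02), with 74.5% of all genes called, 36.0% as lower and 38.6% as higher. Of the mitochondrial members 4 were lower and 3 higher (median -0.15), and 7 were lower without day 10 replicate 1 or day 25 replicate 3. The 4 comparisons share libraries, so their counts are not independent of each other.

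The steps can be followed member by member. Of the 61 nuclear members that fell by day 15, 39 rose again by day 20, 6 fell further and 16 were not called in the second step. The 8 that rose by day 15 (NDUFA5, NDUFA6, NDUFA11, NDUFS5, NDUFA4, UQCR11, COX6B1 and ATP5F1E) were all lower at day 20. Both steps use the libraries of day 15. Day 10 was the day of the highest mean for 61 of the 82 tested nuclear members, and day 15 was that of the lowest mean for 44. Matching counts over all genes tested were not made, so whether these patterns are particular to the members is not known.

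The scaling of libraries sets these splits in part. With library-size scaling in place of TMM, the median over all genes moved from 0.20 to -0.32 at day 15 and from 0.10 to 0.73 at day 20 against day 15. At day 15 the nuclear members then stood at 1 higher, which was NDUFA5 (0.55), and the mitochondrial members at 0 higher and 12 lower. At day 20 against day 15, 69 nuclear and 12 mitochondrial members were then higher.

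**Figure D2:**
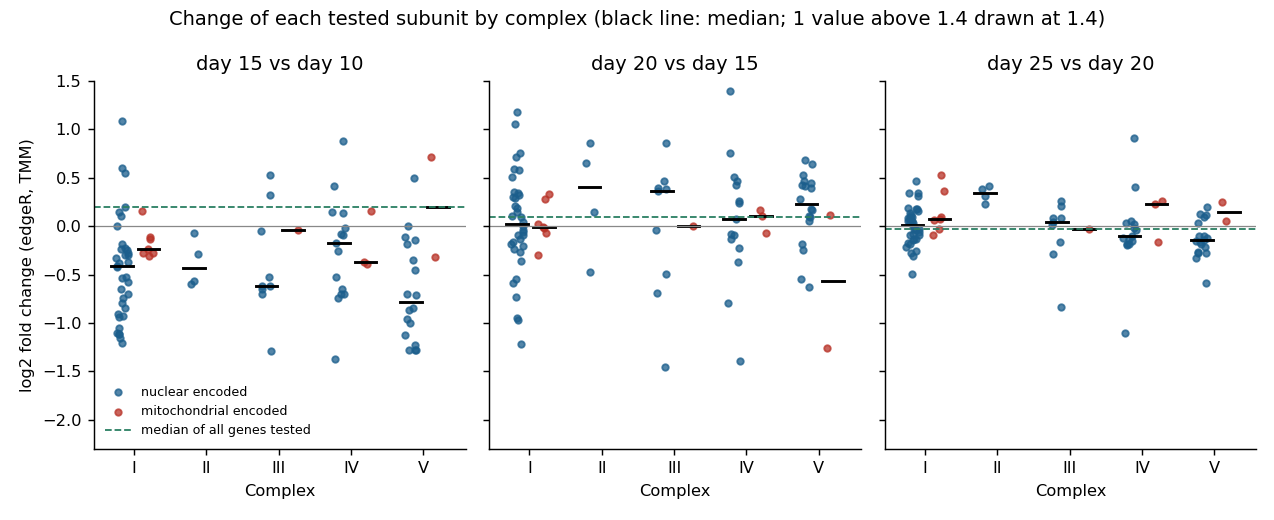
Log2 fold change (vertical axis, edgeR with TMM scaling) of each tested member between neighbouring days, by complex, with nuclear members in blue, mitochondrial members in red, group medians as black lines and the median of all genes tested as a dashed line. Complex V nuclear members have the lowest nuclear median at day 15 (-0.78), and COX6B2, at 4.15, is drawn at the upper edge of the middle panel.

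Among the mitochondrial genes, the 3 cytochrome c oxidase genes, which encode the catalytic core of complex IV, went separate ways. MT-CO1 (ENSG00000198804, mitochondrial genome from 5904 to 7445 on the + strand in GRCh38) stood at 13951, 14264 and 14756 CPM at day 10. At day 25 it stood at 18079, 17804 and 18678 CPM, and the days did not overlap. The log2 fold change was 0.34 (SE 0.0274, edgeR adjusted p = 3.1e-14). MT-CO1 was also called higher at day 15 (0.16), a direction that turned with library-size scaling (-0.37), without a filter on low counts (-0.04) and in a fit to days 10 and 15 alone (-0.02).

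MT-CO3 stood at 5253, 5776 and 5825 CPM at day 10 and at 4138, 3998 and 4281 CPM at day 25. Each day 25 library was below each day 10 library, with a log2 fold change of -0.44 (SE 0.0364, adjusted p = 6e-11). MT-CO2 fell by 0.37 on the log2 scale to day 15 (adjusted p = 0.0016) and was not called at day 25 against day 10, at 4653 ± 331 against 4568 ± 289 CPM (adjusted p = 0.76). As a share of all mitochondrially encoded counts, which is free of library scaling, MT-CO1 went from 28.8% ± 0.87 at day 10 to 34.2% ± 0.16, 32.4% ± 0.486 and 35.0% ± 0.939. MT-CO3 went from 11.3% ± 0.0763 to 9.14% ± 0.225, 9.81% ± 0.184 and 7.96% ± 0.203.

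The genes for membrane subunits of complex I also parted. MT-ND6 is the only protein gene on the light strand (from 14149 to 14673, - strand), and it lies beside MT-ND5. It stood at 1001, 1116 and 1128 CPM at day 10 and at 1496, 1716 and 1965 CPM at day 25. All day 25 libraries were higher, with a log2 fold change of 0.67 (SE 0.102, adjusted p = 0.00026), the largest rise among the 13 genes in that comparison. MT-ND5 stood at 3092, 3332 and 3352 CPM at day 10, at 2664, 2701 and 2664 at day 15, at 3603, 3305 and 3187 at day 20 and at 3968, 4451 and 4548 at day 25. It was lowest at day 15 and highest at day 25, and days 10 and 20 overlapped. From day 10 to day 25 it rose by 0.41 (SE 0.0562, adjusted p = 3.7e-05).

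As shares of mitochondrial counts, MT-ND6 went from 2.17% ± 0.0329 at day 10 to 3.31% ± 0.316 at day 25, and MT-ND5 from 6.54% ± 0.043 to 8.31% ± 0.492. Whether counting used strand is not given in the sources used here, so MT-ND6 and RNA from the opposite strand at its position cannot be told apart.

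MT-ND1, the first protein gene along the heavy-strand transcript, went the other way. It made up 6.01% ± 0.138 of mitochondrial counts at day 10, 7.13% ± 0.0972 at day 15, 5.78% ± 0.151 at day 20 and 4.89% ± 0.26 at day 25. In CPM the log2 fold change was -0.23 at day 25 against day 10 (adjusted p = 0.045), a call that was lost when any 1 of 9 libraries was left out (all but day 10 replicate 1, day 20 replicate 1 and day 25 replicate 3). The fall of MT-ND1 by 0.30 from day 15 to day 20 (adjusted p = 0.016) was no longer called without day 20 replicate 2 (-0.25) or 3 (-0.26), and its direction turned with library-size scaling (0.33). The loss of share was not particular to MT-ND1. Mean shares ended below day 10 for all mitochondrial genes except MT-CO1, MT-ND5 and MT-ND6. MT-ND2, for one, went from 4.72% to 3.79% and MT-ND3 from 1.25% to 0.986%.

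MT-ND2 (log2 fold change -0.31, adjusted p = 0.0045), MT-ND3 (-0.24, 5.2e-08) and MT-ND4L (-0.28, 0.012) were lower at day 15 than at day 10. At day 25 MT-ND2 (-0.25) and MT-ND3 (-0.28) were called lower than at day 10, while MT-ND4L (-0.20) was not called, except without day 10 replicate 1 (-0.27) or day 25 replicate 3 (-0.28). MT-ND4, with 7255 ± 490 CPM at day 10 and 6837 ± 435 at day 25, was not called between any pair of days compared. MT-CYB, the only mitochondrial gene of complex III, was not called either, at 3580 ± 288, 3477 ± 127, 3475 ± 238 and 3398 ± 212 CPM on the 4 days. Without day 10 replicate 1, MT-CYB at day 25 against day 10 (-0.14) and MT-ND4 at day 15 against day 10 (-0.17) were called as lower.

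Of the 2 ATP synthase genes in the mitochondrial genome, MT-ATP6 fell by 0.32 to day 15 (SE 0.0672, adjusted p = 0.0016) and was not called at day 25 against day 10 (-0.15), except without day 10 replicate 1 (-0.18), day 20 replicate 1 (-0.15) or day 25 replicate 3 (-0.22). MT-ATP8 shares 46 bases with MT-ATP6, and its counts, between 1237 and 2005 over the 3 libraries of a day, were far below those of its neighbour. It stood at 16.3, 20.0 and 17 CPM at day 10, at 26.2, 36.5 and 25.2 at day 15, and at 11.3, 15.3 and 9.89 at day 20. Day 15 was above both neighbours without overlap, with log2 fold changes of 0.71 to day 15 (adjusted p = 0.0018) and -1.26 to day 20 (1.2e-05). With library-size scaling these came to 0.18, not called, and -0.64. How reads of the shared bases were assigned is not given in the sources used here, so the level of MT-ATP8 is uncertain. The nuclear genome holds copies of parts of the mitochondrial genome, and reads shared with them are uncertain for all 13 genes.

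**Figure D3:**
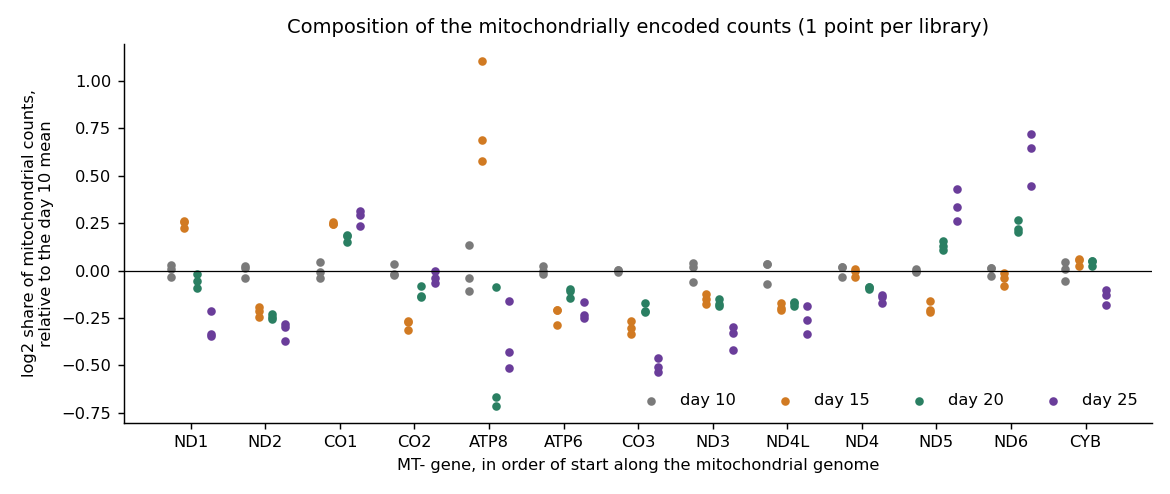
Share of each mitochondrially encoded gene in all mitochondrially encoded counts, as log2 relative to its day 10 mean (vertical axis), with 1 point per library coloured by day and genes in order along the mitochondrial genome. By mean share, MT-CO1, MT-ND5 and MT-ND6 end above day 10 and all other genes below, while MT-ATP8 is high at day 15.

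Complex I has 36 nuclear members, of which 29 fell and 4 rose by day 15 (median -0.41). Of all genes tested, 30.8% fell and 42.4% rose (median 0.20). The nuclear core subunits of complex I carry the flavin and the iron-sulphur clusters. NDUFV1, which holds the NADH site, stood at 140, 136 and 144 CPM at day 10 and at 74.0, 69.3 and 79.9 at day 15. It stood at 91.8, 95.1 and 88.8 at day 20 and at 112, 115 and 122 at day 25. The 4 days did not overlap, and NDUFV1 ended between its day 10 and day 20 levels. NDUFS1, the largest core subunit, fell by 0.70 to day 15 (SE 0.0439, adjusted p = 1.6e-18) and rose by 0.34 from day 20 to day 25 (6.8e-09). NDUFS7, another core subunit, fell by 0.54 to day 15 (SE 0.134, adjusted p = 0.00041) and was not called at day 25 against day 10 (-0.17, adjusted p = 0.22). It shares 2693 exon bases (35.7%) with AC005329.1 on the opposite strand, so its level is uncertain.

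Of the 29 accessory subunits of complex I, which surround the core, 22 fell and 4 rose by day 15. Among all genes tested 30.8% fell and 42.4% rose. NDUFA5 (ENSG00000128609, chromosome 7 from 123536997 to 123558255, - strand), a subunit of the arm that reaches into the matrix, stood at 39.3, 35.5 and 39.2 CPM at day 10 and at 82.1, 83.5 and 76.0 at day 15. It then stood at 39.2, 42.7 and 41.5 at day 20 and at 36.2, 29.3 and 34.2 at day 25. Only day 15 stood apart from all other days. The log2 fold change was 1.09 to day 15 (SE 0.0665, adjusted p = 1e-18) and -0.97 to day 20 (3.8e-17), and the rise was the largest of all tested members that were called in that comparison. NDUFS5 (0.60, SE 0.0503, adjusted p = 2e-14) and NDUFA6 (0.55, SE 0.0638, 2.4e-10) rose as well, and with library-size scaling they came to 0.07 and 0.02 and were not called.

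NDUFA6 stood at 54.5, 55.5 and 53.7 CPM at day 10, at 74.0, 84.8 and 81.7 at day 15, at 34.8, 33.1 and 35.4 at day 20 and at 31.7, 25.5 and 29.4 at day 25. The days did not overlap, and the 2 later days lay below day 10. Its fall from day 15 to day 20 was 1.22 on the log2 scale (SE 0.0658, adjusted p = 1.2e-20). NDUFA11 was the other accessory member called higher. NDUFA2 (0.20, adjusted p = 0.084) was not called, except without day 15 replicate 2 (0.31), and its direction turned with library-size scaling (-0.33).

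NDUFA12 and NDUFB2 had the mirrored course. NDUFA12 stood at 22.6, 23.6 and 21.5 CPM at day 10, at 8.69, 10.8 and 9.85 at day 15, at 23.3, 22.3 and 20.7 at day 20 and at 15.8, 14.4 and 17.1 at day 25. Days 10 and 20 overlapped, with day 15 below all others. Its log2 fold changes were -1.21 (SE 0.104, adjusted p = 5.1e-14), 1.18 (1.1e-13) and -0.49 (2.8e-05) over the 3 steps. NDUFB2 fell by 1.11 to day 15 and rose by 1.06 to day 20 (adjusted p = 1.6e-15 and 7.9e-15), and at day 25 it was not called against day 10 (0.05). NDUFB2 shares 1239 exon bases with BRAF on the opposite strand.

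NDUFB9 had the largest called rise from day 20 to day 25 among nuclear members above 10 CPM, from 48.7 ± 1.98 to 67.6 ± 3.74 CPM (log2 fold change 0.47, adjusted p = 1.2e-09). NDUFB9 shares 677 exon bases (16.5%) with MTSS1 on the opposite strand. NDUFC1 and NDUFS6 had the largest falls of complex I over the whole course. NDUFC1 went from 24.9 ± 0.44 to 11.9 ± 0.606 CPM (-1.07, SE 0.0981, adjusted p = 3.5e-13), and NDUFS6 from 49.8 ± 2.54 to 24.4 ± 1.26 CPM (-1.03, SE 0.0717, 6.3e-17). NDUFC1 shares 360 exon bases with MGARP on the same strand. In all, 31 of the 36 nuclear members were lower at day 25 than at day 10, and 1, NDUFA2, was higher (0.25, adjusted p = 0.028). Among all genes tested 36.0% were lower and 38.6% higher. The call of NDUFA2 was lost without day 10 replicate 2 (0.26) or 3 (0.24) or day 25 replicate 1 (0.22) or 2 (0.25).

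Complex II, which is also the succinate dehydrogenase of the citric acid cycle, was the complex whose nuclear members were mostly higher at the end. All 4 rose from day 20 to day 25, and 3 of 4 were higher at day 25 than at day 10 (median 0.36, all genes 0.02). Among all genes tested 24.5% rose from day 20 to day 25, and 38.6% were higher at day 25 than at day 10. SDHB, the iron-sulphur subunit (ENSG00000117118, chromosome 1 from 17018722 to 17054170, - strand), stood at 42.8, 45.8 and 45.8 CPM at day 10 and at 28.8, 27.7 and 32.1 at day 15. It reached 46.5, 46.2 and 46.8 CPM at day 20 and 60.7, 58.1 and 63.0 at day 25. The 4 days did not overlap, and day 25 was highest. Its log2 fold changes were -0.60, 0.65 and 0.38 over the 3 steps, and 0.43 over the whole course (SE 0.0602, adjusted p = 2.1e-08).

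SDHD, a membrane anchor, stood at 59.8, 56.0 and 57.7 CPM at day 10, at 37.6, 40.2 and 38.9 at day 15, at 69.9, 70.2 and 71.3 at day 20 and at 84.4, 79.8 and 84.1 at day 25. As for SDHB, the days did not overlap and rose from day 15 on. SDHD had the largest called rise over the whole course among nuclear members with at least 10 CPM (0.52, SE 0.0511, adjusted p = 3.4e-12). The other anchor, SDHC, rose by 0.28 (3.1e-06).

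SDHA, the flavoprotein with the succinate site, differed from its partners. It stood at 164, 152 and 157 CPM at day 10, at 147, 152 and 152 at day 15, at 109, 107 and 110 at day 20 and at 135, 130 and 137 at day 25. It was lowest at day 20, and days 10 and 15 met at 152 CPM. SDHA was not called at day 15 (-0.07, adjusted p = 0.13), fell by 0.47 to day 20 (1.3e-13), a direction that turned with library-size scaling (0.15), and ended 0.23 below day 10 on the log2 scale (adjusted p = 2.3e-06). As a share of all nuclear subunit counts, complex II went from 4.70% ± 0.0842 at day 10 to 5.91% ± 0.0959, 5.71% ± 0.19 and 6.94% ± 0.0823 at day 25.

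The core proteins of complex III fell at day 15 and rose again. UQCRC1 (ENSG00000010256, chromosome 3 from 48599002 to 48610976, - strand) stood at 182, 175 and 173 CPM at day 10, at 72.3, 71.5 and 72.7 at day 15, at 136, 130 and 127 at day 20 and at 153, 161 and 155 at day 25. No 2 days overlapped. Its log2 fold change was -1.29 to day 15 (SE 0.0429, adjusted p = 2.2e-28) and 0.86 to day 20 (SE 0.0432, 8e-22). UQCRC2 (-0.65 and 0.36) and UQCRFS1, the Rieske iron-sulphur protein (-0.62 and 0.39), moved in the same directions with smaller changes.

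The small subunits of complex III did not share one course. UQCRH, the hinge protein that binds near cytochrome c, fell at each step. It stood at 185, 189 and 190 CPM at day 10, at 117, 115 and 114 at day 15, at 70.1, 71.7 and 73.2 at day 20 and at 56.6, 55.8 and 63.8 at day 25. No 2 days overlapped, and the whole fall of 1.68 on the log2 scale (SE 0.0463, adjusted p = 1.6e-31) was the largest of any called member with at least 10 CPM. Its near-identical copy UQCRHL held between 2.32% ± 1.02 and 5.57% ± 0.427 of the counts of the pair, and the split of reads between them is uncertain.

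UQCR11 (ENSG00000127540, chromosome 19 from 1597172 to 1605490, - strand) stood at 52.6, 48.4 and 46.9 CPM at day 10 and at 73.3, 67.3 and 72.8 at day 15, and at 52.1, 52.9 and 46.7 at day 20. Day 15 stood above both neighbours, which overlapped. The rise to day 15 was 0.53 (SE 0.0591, adjusted p = 9.5e-11) and became -0.00 with library-size scaling. UQCR10, at 19.1 ± 0.779, 18.4 ± 0.448, 17.9 ± 0.689 and 18.0 ± 0.925 CPM, was not called between any pair of days compared.

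Promoter sequences were compared because nuclear respiratory factor 1 (NRF1) and the ETS factor GABPA (also called NRF2) are known as activators of many nuclear genes of these complexes. RefSeq promoter windows (GRCh38.p14) were found for 69 of the 87 nuclear members, with 1 window per gene, and the 250 bases before the start were searched on both strands. The NRF1 motif, searched as GCGCA, any 1 base and GCGC, was in 15 of the 69 windows (21.7%), against 7.65% of 15842 protein-coding windows. The ETS motif, CCGGAAG, was in 17 (24.6%), against 11.8%. The SP1 motif GGGGCGGGG was in 14.5% against 21.8%, the CREB motif TGACGTCA in 5.8% against 2.32%, the E-box CACGTG in 8.7% against 7.84%, and TATAAA in 10.1% against 9.23%.

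The 120 bases before the start are shown for a gene that fell at day 15 and rose again, a gene that ended above day 10 and a gene that rose at day 15, since all 3 hold the NRF1 letters. Capitals mark NRF1 and ETS matches on either strand, and each stretch is read 5′ to 3′ along the strand of its gene, from RefSeq, GRCh38.p14. UQCRC1 is at chr3:48609647-48609766 on the - strand, SDHD at chr11:112086753-112086872 on the + strand and UQCR11 at chr19:1605463-1605582 on the - strand. GENCODE annotates longer transcripts, so the stretches lie wholly or in part inside its gene spans. No match shown overlaps another.
UQCRC1: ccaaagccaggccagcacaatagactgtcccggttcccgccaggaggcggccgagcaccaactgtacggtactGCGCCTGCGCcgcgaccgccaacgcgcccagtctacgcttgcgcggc
SDHD: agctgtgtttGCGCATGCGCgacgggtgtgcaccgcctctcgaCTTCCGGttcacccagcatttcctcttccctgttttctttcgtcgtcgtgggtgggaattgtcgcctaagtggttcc
UQCR11: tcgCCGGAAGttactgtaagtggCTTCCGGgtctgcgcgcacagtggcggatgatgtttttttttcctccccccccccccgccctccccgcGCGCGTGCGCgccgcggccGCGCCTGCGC

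UQCRC1 has 1 NRF1 match, SDHD has 1 NRF1 and 1 ETS match, and UQCR11 has 2 of each. At day 15 these genes changed by -1.29, -0.57 and 0.53 on the log2 scale. Of 14 tested members with the NRF1 letters 9 fell and 2 rose by day 15 (median -0.51), and of 52 without them 41 fell and 4 rose (median -0.47). For the ETS letters, 14 of 17 members fell with a median of -0.52, and 36 of 49 without them fell with a median of -0.45. Among all genes tested 30.8% fell and 42.4% rose by day 15. A match describes letters in a window and says nothing of binding.

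Complex IV had 19 nuclear members, of which 15 were tested, with 8 lower and 2 higher at day 15. Among all genes tested 30.8% were lower and 42.4% higher. COX4I1, the regulatory subunit used in most tissues, was not called in any of the 4 comparisons, at 193 ± 5.46, 183 ± 5.63, 191 ± 7.93 and 197 ± 5.2 CPM. It was called as lower at day 15 without day 10 replicate 3 (-0.11), with 4 other libraries left out in turn (-0.10 to -0.08), and as higher at day 20 without day 20 replicate 3 (0.10). COX5A, a matrix-side subunit, stood at 92.6, 93.2 and 98.2 CPM at day 10, at 36.5, 36.5 and 36.8 at day 15, at 65.1, 61.9 and 59.0 at day 20 and at 64.8, 58.4 and 66.6 at day 25. Day 15 was below all other days, and days 20 and 25 overlapped below day 10. Its log2 fold change of -1.37 to day 15 (SE 0.0577, adjusted p = 1.5e-24) was the largest fall of any member in that comparison. COX5B fell by 0.70 to day 15 and rose by 0.24 and 0.41 over the next steps, so that day 25 (67.9 ± 2.39 CPM) and day 10 (70.1 ± 5.87 CPM) were not called apart (adjusted p = 0.51).

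NDUFA4 stood at 132, 139 and 127 CPM at day 10, at 148, 141 and 154 at day 15, at 86.4, 83.6 and 85.8 at day 20 and at 77.9, 76.1 and 80.9 at day 25. The 2 early days lay above the 2 late days without overlap. Its fall from day 15 to day 20 was 0.79 (SE 0.0452, adjusted p = 7.3e-20), while its rise to day 15 (0.15, 0.0024) turned with library-size scaling (-0.38), without a filter (-0.05) and in a fit to those days alone (-0.03). COX7A2 (-0.83), COX7B (-0.54), COX6A1 (-0.45) and COX8A (-0.27) were lower at day 25 than at day 10, and COX7A2L, which takes part in joining complexes into supercomplexes, was slightly higher (0.19, adjusted p = 0.0087).

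Several complex IV subunits have isoforms used in particular tissues. COX6B2, known from testis, stood at 0.381, 0.427 and 0.236 CPM at day 10, at 0.380, 0.580 and 0.482 at day 15, at 9.09, 8.34 and 8.13 at day 20 and at 3.75, 4.85 and 3.23 at day 25. The 2 late days lay above the 2 early days, day 20 highest. The log2 fold change to day 20 was 4.15 (SE 0.278, adjusted p = 2e-17, 33 counts at day 15 against 862 at day 20), followed by -1.10 to day 25 (1.2e-05). COX6B2 held 0.484% ± 0.162, 0.601% ± 0.126, 12.2% ± 0.312 and 6.11% ± 1.45 of the summed COX6B1 and COX6B2 counts on the 4 days. Sums of epithelial, stromal, myeloid, T-cell and proliferation markers were also higher at day 20 than on either neighbouring day. The 5 epithelial markers summed to between 161 and 170 CPM at day 15, between 1185 and 1246 at day 20 and between 425 and 441 at day 25. The 6 stromal markers summed to between 1472 and 1541, between 6836 and 6953 and between 4555 and 4630 CPM on these days. The myeloid, T-cell and proliferation sums are given above. The part of any of these cells in the result was not tested. COX6B1 itself was called higher at day 15 (0.14, adjusted p = 0.028), which failed the threshold without day 10 replicate 2 (0.07) or day 15 replicate 3 (0.12), and its direction turned with library-size scaling (-0.40), without a filter (-0.07) and in a fit to those days alone (-0.04).

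The other tissue isoforms stayed near 0. COX4I2 had between 0 and 8 counts over the 3 libraries of a day, COX6A2 between 1 and 3, and COX7B2 between 0 and 2. The counts of COX8C were 1, 30, 7 and 0 on the 4 days. COX7A1 stood between 0.118 ± 0.129 and 0.319 ± 0.163 CPM and was not called, except as lower at day 25 than at day 10 without day 25 replicate 3 (-2.52). NDUFA4L2, a low-oxygen induced relative of NDUFA4, was called higher at day 25 than at day 10 (0.521 ± 0.119 against 0.169 ± 0.106 CPM, log2 fold change 1.57, adjusted p = 0.04). This call was lost without day 10 replicate 1 (1.19) or 3 (1.55), day 20 replicate 2 (1.57), or day 25 replicate 1 (1.47) or 2 (1.49).

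Complex V lost share among the nuclear subunit counts. Its nuclear members made up 40.2% ± 0.0982 of those counts at day 10, 31.9% ± 0.186 at day 15, 36.4% ± 0.157 at day 20 and 35.6% ± 0.149 at day 25, with no overlap between days. Much of this sum came from ATP5F1B and ATP5F1A. They stood at 937 and 574 of 2831 CPM at day 10 and at 399 and 236 of 1491 CPM at day 15. All 18 tested nuclear members were lower at day 25 than at day 10 (median -0.65), against 36.0% of all genes tested (median 0.02). By day 15, 15 fell and 1 rose (median -0.78), against 30.8% and 42.4% of all genes tested (median 0.20).

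**Figure D4:**
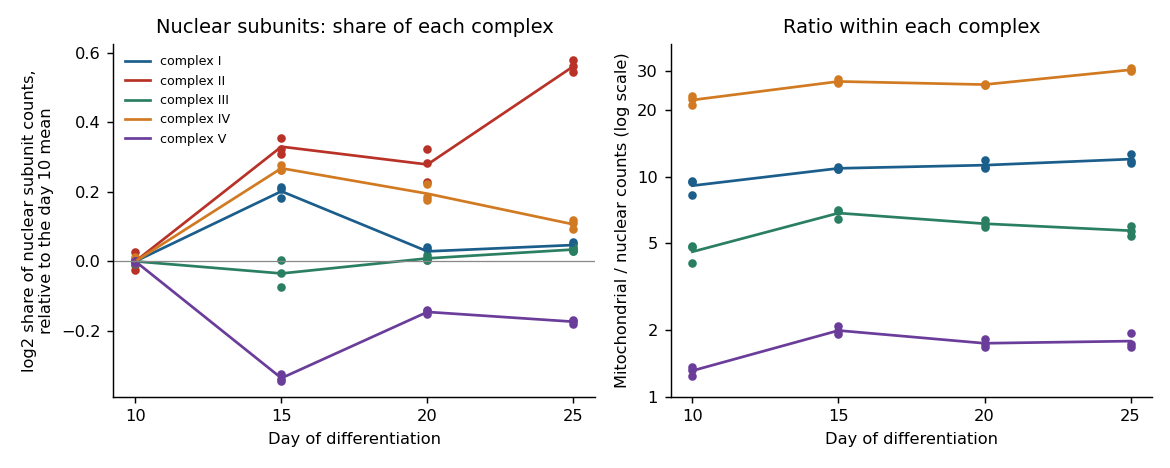
Left, share of each complex in the summed nuclear subunit counts, as log2 relative to its day 10 mean; right, ratio of mitochondrial to nuclear counts within complexes I, III, IV and V on a log axis; points are libraries and lines join the day means. Complex V falls from 40.2% to 31.9% of nuclear subunit counts at day 15, and complex II climbs from 4.70% at day 10 to 6.94% at day 25.

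In the catalytic F1 head, ATP5F1B (ENSG00000110955, chromosome 12 from 56638175 to 56646068, - strand) stood at 948, 931 and 933 CPM at day 10, at 392, 400 and 405 at day 15, at 544, 518 and 504 at day 20 and at 560, 563 and 576 at day 25. The days did not overlap, and day 25 remained well below day 10. The log2 fold change was -1.23 to day 15 (SE 0.0315, adjusted p = 1.3e-32) and -0.73 over the whole course (SE 0.0309). Its partner ATP5F1A changed by -1.28 (SE 0.0335, adjusted p = 2.7e-32) and then by 0.68 to day 20, and ended 0.48 below day 10. ATP5F1C, of the central stalk, fell by 0.85 to day 15 and was not called in the later steps, at 79.7 ± 1.44, 82.6 ± 3.27 and 77.1 ± 2.78 CPM on the later days.

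ATP5F1E was the 1 nuclear member of complex V that was called higher at day 15. It stood at 115 ± 0.948 CPM against 81.2 ± 4.21 at day 10 (0.50, adjusted p = 3.3e-12). It shares 1188 of its exon bases (23.2%) with the platelet tubulin gene TUBB1 on the opposite strand, a marker of megakaryocytes, whose summed markers were highest at day 15. Without knowledge of strand, reads of the 2 genes cannot be told apart there. In all, 37 nuclear members share exon bases with another gene of the count table.

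The 3 genes for the c subunit, which encode the same mature protein of the membrane ring, fell together at day 15, by 1.28 (ATP5MC1), 0.96 (ATP5MC2) and 1.28 (ATP5MC3) on the log2 scale, and rose at day 20. From day 20 to day 25 they parted, with ATP5MC3 up by 0.20 (adjusted p = 0.0001) and ATP5MC1 and ATP5MC2 down by 0.28 each (0.0017 and 3.1e-06). The share of ATP5MC1 in the sum of ATP5MC1 and ATP5MC3 went from 20.5% ± 1.15 at day 10 to 14.0% ± 0.637 at day 25.

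The peripheral stalk genes ATP5PB, ATP5PD, ATP5PF and ATP5PO all fell by day 15, with log2 fold changes from -1.0 to -0.18. Of the 5 small membrane subunits (ATP5ME, ATP5MF, ATP5MG, ATP5MJ and ATP5MK), 3 fell at day 15 (median -0.14) and all 5 were lower at day 25 than at day 10. Among all genes tested 30.8% fell by day 15 and 36.0% were lower at day 25 than at day 10. ATP5MJ was not called at day 15 (-0.11), except without day 10 replicate 3 (-0.15), and fell by 0.55 and 0.33 over the later steps, the first of which turned with library-size scaling (0.07). The inhibitor ATP5IF1, which blocks the enzyme from running backwards, stood at 75.7, 71.1 and 76.5 CPM at day 10 and at 31.2, 35.4 and 36.1 at day 15. It stood at 41.6, 41.7 and 41.3 at day 20 and at 39.0, 38.3 and 35.2 at day 25. Day 10 stood above all later days, and day 20 above days 15 and 25. Its log2 fold change was -1.12 to day 15 (SE 0.0634, adjusted p = 5.8e-20), 0.28 to day 20 (0.00018) and -0.99 over the whole course (1.1e-18). The step to day 25 (-0.15, adjusted p = 0.049) was no longer called when any 1 of 9 libraries was left out (all but day 15 replicates 1 and 3 and day 25 replicate 1; -0.16 to -0.10).

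**Figure D5:**
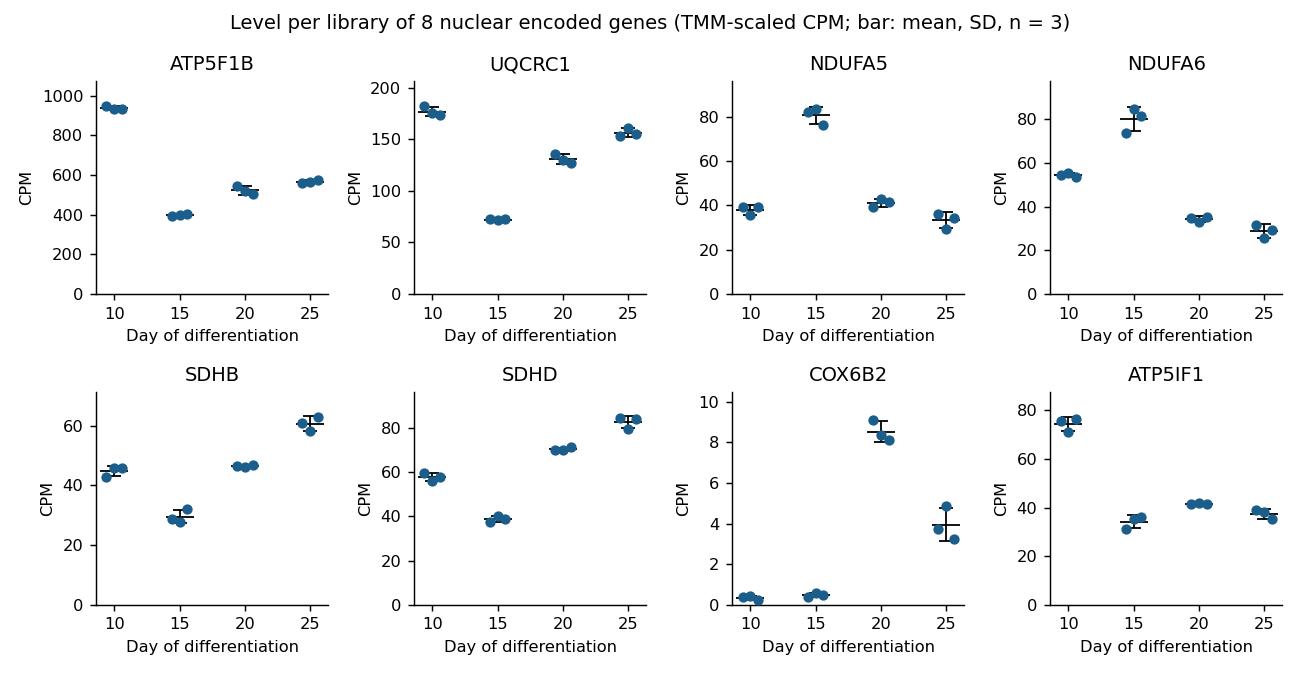
TMM-scaled CPM (vertical axis, from 0) of 8 nuclear members by day, with 1 point per library and bars for the mean and SD of 3 libraries. ATP5F1B, UQCRC1 and ATP5IF1 are highest at day 10, NDUFA5 and NDUFA6 at day 15, COX6B2 at day 20, and SDHB and SDHD at day 25.

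Length and level were set beside the changes across the 82 tested nuclear members. The log2 fold change to day 15 had a Spearman correlation of -0.11 with the length of the chosen transcript. With the day 10 level in CPM the correlation was -0.35. For length it was 0.24 at day 20 against day 15, 0.30 at day 25 against day 20 and 0.28 at day 25 against day 10. For the day 10 level it was 0.16, 0.22 and -0.07 in these comparisons. These are descriptions across genes of the same libraries, and the day 10 level is also part of the fold change.

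Genes that build or supply the complexes were counted beside the subunits. Of all genes tested, 30.8% were called lower and 42.4% higher at day 15 than at day 10. At day 20 against day 15, 40.6% were higher and 36.0% lower, and at day 25 against day 10, 36.0% were lower and 38.6% higher. CYC1, the cytochrome c1 subunit of complex III, fell by 1.16 to day 15 and rose by 0.63 to day 20, and NDUFAB1, the acyl carrier protein in complex I, changed by -0.72 and 0.42. Of 50 assembly factors of complexes I to V, 33 fell and 10 rose by day 15 (median -0.62), 28 rose and 13 fell by day 20, and 33 were lower and 5 higher at day 25 than at day 10 (median -0.44). Among them COA7, a complex IV factor, changed by -1.81 at day 15 and 1.14 at day 20, whereas NDUFAF6, a complex I factor, changed by 1.03 and -1.77. ATPAF2, an ATP synthase chaperone, was higher at day 25 than at day 10 (21.5 ± 0.185 against 9.88 ± 2.03 CPM, 1.13, adjusted p = 1.7e-11), and FMC1, which acts in the same step, was lower (-1.32).

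Of 16 citric acid cycle genes, 15 fell and 0 rose by day 15 (median -0.81, edgeR), with the other 1 not called, and 14 rose by day 20. Among all genes tested 30.8% fell by day 15, 40.6% rose by day 20 and 36.0% were lower at day 25 than at day 10. Of 11 electron carrier genes, 8 were lower at day 25 than at day 10, and cytochrome c itself (CYCS) went from 165 ± 2.9 to 85.4 ± 1.87 CPM (-0.95). COQ2, of ubiquinone synthesis, changed by -1.56.

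Factors that act on mitochondrial DNA and RNA were counted too, beside 30.8% of all genes tested called lower and 42.4% called higher at day 15. Of 11 genes of mitochondrial DNA upkeep and transcription 8 fell and 0 rose by day 15 (median -0.52, edgeR), with 3 not called. TFAM, which packs and helps transcribe mitochondrial DNA, went from 66.4 ± 5.37 to 24.9 ± 1.65 CPM at day 15, 53.7 ± 2.54 at day 20 and 32.3 ± 0.481 at day 25 (-1.42, 1.11 and -0.73 on the log2 scale, each called). POLRMT, the mitochondrial RNA polymerase, changed by -0.20 and 0.28. Of 16 mitochondrial RNA handling genes 12 fell and 3 rose by day 15. LRPPRC, which keeps heavy-strand mRNAs stable, fell by 1.77 (236 ± 2 to 69.2 ± 1.62 CPM, adjusted p = 6.4e-34) and its partner SLIRP by 1.34. PNPT1, an exonuclease of mitochondrial RNA, rose by 1.69 and then fell by 2.56 (60.9 ± 1.64, 197 ± 1.21 and 33.4 ± 1.81 CPM at days 10, 15 and 20). Of 9 biogenesis regulators 2 rose and 5 fell by day 15. PPARGC1B was higher at day 25 than at day 10 (1.90, adjusted p = 6.6e-19) and MYC (-1.68) and NRF1 (-0.76) were lower, while PPARGC1A, not called there, rose from 0.198 ± 0.125 CPM at day 15 to 1.22 ± 0.19 at day 20 (2.58, adjusted p = 0.00015).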

How the data were processed

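RNA from 12 libraries was prepared by LM-Seq, a ligation-based protocol, and sequenced as single reads, per the labels' protocols. The authors deposited 1 table of raw counts per Ensembl gene and library, not normalised. Reads were mapped to GRCh38 per the submitters' processing notes. Aligner, counter, annotation and strand setting were not given in the sources used here. Every library held more genes with 2 counts than with 1, so 1 fragment may have been counted more than 1 time.

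Symbols came from a separate reference list of gene names, which matched 36366 of 36601 rows. Biotypes, coordinates and exons came from GENCODE release 29. Of 106 symbols that fit the patterns, 6 were not protein coding and were left out. Libraries were grouped by day. Counts were tested in R 4.3.3 with edgeR 4.0.16 (filterByExpr at a minimum count of 10, TMM factors from 0.753 to 1.172, robust glmQLFit on all 12 libraries, glmQLFTest), with Benjamini-Hochberg adjustment over 20183 genes and calls at an adjusted p under 0.05. A joint F test covered the 4 days. SE is the absolute log2 fold change over the square root of F. Data were simulated for day 15 against day 10 over 15406 genes, with 67, 67 and 66 genes changed 1.5-fold, 2-fold and 4-fold. The test found 82.1%, 95.5% and 100% of these, and 3.1% of 191 calls were false. In the deposited libraries 73.2% of the genes tested were called in that comparison. The simulated data left out genes with low expected counts and gave every gene the same spread of 6% beyond counting noise. The false rate with so many genes changed, with low counts or with a spread that differs by gene was not tested. Figures used Python 3.11.15 with pandas 2.3.3 and matplotlib 3.10.9.

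The members and lists were chosen with earlier results of these data known. The text names all mitochondrial members, a fixed panel of isoforms, complex II and core subunits, per comparison the 4 nuclear members with the largest called rise and the 4 with the largest fall at 10 CPM or more, and per pathway list up to 2 genes with the largest change. Other members were named after their values were seen, and 1 member is not reported here by itself. Alternatives were DESeq2 size factors and DESeq2 1.42.0, library-size scaling, scaling that leaves out genes of the mitochondrial genome, ribosomal proteins and haemoglobins, a stricter low-count filter or none, limma-voom (limma 3.58.1), a replicate block, the compared days alone, and leaving out each library.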

Additional observations from a re-analysis of the deposited data

How the results depend on the processing

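With scaling by library size, mitochondrial members at day 15 against day 10 stood at 0 higher and 12 lower (2 and 7 with TMM), and nuclear members at 1 higher (8). At day 20 against day 15 mitochondrial members stood at 12 higher and 1 lower (3 and 3), nuclear members at 69 higher and 5 lower (41 and 20), and all genes at 4530 lower (7271). At day 25 against day 20 it gave 4 mitochondrial members lower (1), 9 nuclear higher (16) and 46 nuclear lower (23), and at day 25 against day 10 it gave 7 mitochondrial members lower (4). Without a filter on low counts, 1 mitochondrial member was higher at day 15, and 10 were higher and 1 lower at day 20. With limma-voom, 5 mitochondrial members were higher at day 20, 2 were lower at day 25 against day 20, and 9 were lower at day 25 against day 10. Fits to the compared days alone gave 1 mitochondrial and 5 nuclear members higher at day 15 and 5 mitochondrial members higher at day 20. Leaving out 1 library at a time gave 1 to 5 mitochondrial members higher and 1 to 3 lower at day 20, and 4 to 7 lower at day 25 against day 10. With counts outside mitochondrial, ribosomal protein and haemoglobin genes as the denominator, mitochondrial members took 6.02%, 3.72%, 6.02% and 5.84% on the 4 days, and nuclear members 0.85%, 0.371%, 0.649% and 0.588%. The cause of these differences between settings was not tested.

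Of 6792 values of named genes under alternatives, 6464 kept direction and side of the threshold, 136 lost the threshold, 146 gained it and 46 turned direction, 33 of these with library-size scaling. With it, log2 fold changes at day 15 became -0.38 for MT-ND1, -0.37 for MT-CO1, -0.00 for UQCR11, -0.38 for NDUFA4, -0.33 for NDUFA2, -0.40 for COX6B1 and -0.43 for SDHAF1. At day 20 against day 15 they became 0.33 for MT-ND1, 0.60 for MT-ND2, 0.55 for MT-CO1, 0.61 for MT-ND3, 0.55 for MT-ND4, 0.62 for MT-CYB, 0.13 for UQCR11, 0.26 for NDUFB9, 0.07 for ATP5MJ, 0.49 for NDUFA2, 0.08 for NDUFC1, 0.53 for NDUFS6, 0.54 for COX6A1, 0.25 for COX6B1, 0.49 for COX7A2, 0.53 for COX7B, 0.15 for SDHA, 0.53 for NDUFS1, 0.14 for UQCC3, 0.40 for TWNK and 0.20 for NRF1. At day 25 against day 20 they became -0.14 for COX5A, -0.04 for ATP5F1A, -0.12 for COX4I1, -0.13 for UQCRFS1 and -0.05 for ATP5F1B. Without a filter, values at day 15 became -0.04 for MT-CO1, -0.05 for NDUFA4 and -0.07 for COX6B1, and at day 20 they became 0.21 for MT-ND2, 0.16 for MT-CO1, 0.22 for MT-ND3, 0.23 for MT-CYB, 0.16 for COX6A1, 0.11 for COX7A2 and 0.14 for NDUFS1. In fits to the compared days alone, values at day 15 became -0.02 for MT-CO1, -0.03 for NDUFA4 and -0.04 for COX6B1.

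With the replicate number as a block, 61 nuclear members were lower at day 15, and 2 mitochondrial members were higher and 7 lower, as without it. The correlation of same-numbered libraries across genes, taken on deviations from the day means, lay between -0.016 and 0.016 for the 18 pairs. No pairing by replicate number was seen, but a weak pairing, or one limited to few genes, could be missed.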
